A study of Mus musculus with 9 samples.

Results

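The 37 genes described here encode subunits of the receptors for glutamate and GABA, the main excitatory and inhibitory transmitters of the brain. They were chosen by symbol alone, as every listed gene named *Gria*, *Grik*, *Grin*, *Grid*, *Grm*, *Gabra*, *Gabrb*, *Gabrd*, *Gabrg*, *Gabrr* or *Gabbr* with its number or letter, if any, and they are 37 of the 14670 genes listed. In the annotation 44 genes fit these symbols. The other 7, *Gabra6*, *Gabrr1*, *Gabrr2*, *Gabrr3*, *Grin2a*, *Grin2c* and *Grm6*, are not listed under these symbols and so were not analysed here. Of the 37 members, 23 encode glutamate receptors and 14 encode GABA receptors.

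Transcript levels were measured by RNA-seq in mouse cerebral cortex dissected at E16.5, with 3 libraries from controls, 3 from *Fzd3* -/- mutants and 3 from *Celsr3* -/- mutants. *Fzd3* encodes a frizzled receptor and *Celsr3* a cadherin with several membrane passes, which act together in axon guidance, and the series asked how cortical transcripts differ when either is missing. The mice were on a mixed C57Bl/6 and CD1 background. The labels give the controls as +/+, whereas the study's methods allow heterozygous or wild-type littermates. Values are CPM (reads scaled to a library size that carries a further factor). The reads recovered from the values summed to 39857305 to 69600589 per library over the listed genes. On this scale 3 reads equal 0.0427 to 0.0752 CPM, a floor that covers counting error only, and the lowest value of any member was 0.345 CPM. Log2 fold changes are given ± standard error. The study's methods speak of cortical tissue from 3 of each genotype, though the labels tie no library to an animal, and the P values measure only the spread between these samples.

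Glutamate opens AMPA, kainate and NMDA receptor channels, which carry fast excitation, and also acts on metabotropic receptors that signal through G proteins. GABA opens GABA-A receptor chloride channels, built from alpha, beta and a further subunit, and acts on the metabotropic GABA-B receptor. Young cortical neurons express many of these subunits before they form synapses, and the subunit mixture is known to shift as neurons mature.

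The mutated genes were examined first. *Celsr3* mRNA stood at 196, 243 and 214 CPM in controls, at 253, 213 and 255 CPM in *Fzd3* mutants and at 122, 139 and 118 CPM in *Celsr3* mutants. The 3 *Celsr3* mutant libraries were below all 6 others (log2 fold change -0.78 ± 0.0910 against controls, limma adjusted P = 0.0018). *Fzd3* mRNA stood at 58.0, 67.7 and 46.9 CPM in controls, at 46.5, 39.8 and 59.6 CPM in the libraries labelled *Fzd3* mutant and at 52.1, 61.1 and 54.8 CPM in *Celsr3* mutants. These groups overlapped (log2 fold change -0.24 ± 0.147, limma adjusted P = 0.24), and the difference between *Fzd3* mutants and controls passed the threshold only without library *Fzd3* 3 (log2 fold change -0.40, limma adjusted P 0.0457 to 0.633 over all alternatives). The listed value is for the whole gene and not for a deleted part, so the level of *Fzd3* mRNA did not tell apart these 3 libraries from the controls, and every direction given for *Fzd3* mutants rests on the label. By staining, the study counted fewer Pax6 cells, modestly fewer Tbr2 (*Eomes*) cells and, at later stages, fewer Olig2 cells in *Fzd3* mutants. In these libraries the log2 fold change against controls was -0.70 for *Pax6*, -0.67 for *Eomes* and 0.98 for *Olig2*. The labels were not tested by these values.

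The sex of the embryos is not given in the sources used here. *Xist* mRNA, which is made from the inactive X chromosome, stood at 0.803 CPM in control 3 and at 0.744 CPM in *Celsr3* 2, and between 806 and 1147 CPM in the other libraries. The 3 *Fzd3* mutant libraries were thus all high in *Xist*, and among the members *Gria3* and *Gabra3* lie on the X chromosome. *Celsr3* 4 stood apart by its meningeal transcripts. The 5 listed meninges markers summed to 175 CPM in that library and to between 10.5 and 21.0 CPM in the other 8, with *Col3a1* at 87.6 CPM. Counts of members are therefore also given without it.

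Over all members, receptor transcripts were higher in *Fzd3* mutants and not in *Celsr3* mutants. They made up 0.207, 0.195 and 0.209% of the CPM in controls, 0.204, 0.204 and 0.192% in *Celsr3* mutants and 0.264, 0.262 and 0.251% in *Fzd3* mutants. The 3 *Fzd3* mutant libraries lay above all others. Between *Fzd3* mutants and controls 24 of the 37 members rose at a limma adjusted P under 0.05, where 15.0% of all genes rose, and 1 fell, where 14.8% of all genes fell. The median log2 fold change of the members was 0.56, against 0.00 over all genes. Fold changes are of CPM + 0.5 on the log2 scale, which understates the change of genes of low level. In 27 members all 3 *Fzd3* mutant libraries were above all 3 controls, as in 21.6% of all genes. The 24 and the 27 both include *Grm8*, which may be listed only because it is high in *Fzd3* mutants, as given below. Among the 24 that rose, the ratio of mean CPM ran from 1.11 for *Gabbr1* to 2.71 for *Grik4*, and it was at least 2 in 11. In bulk tissue a change in the number of cells that make a transcript and a change in transcript per cell cannot be told apart.

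**Figure D1:**
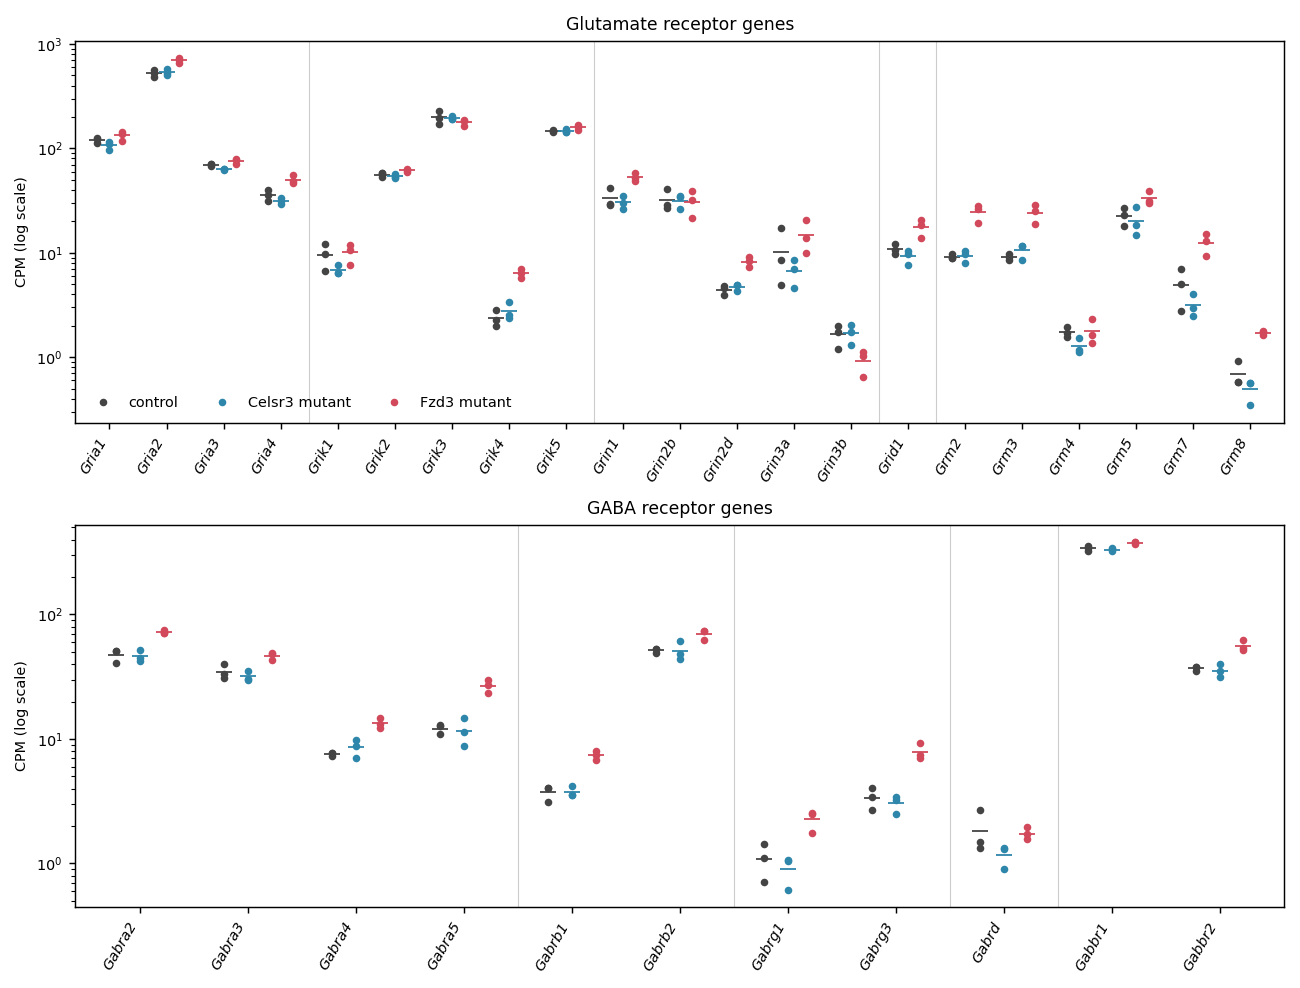
CPM of each receptor gene named here in each library on a log axis, with 1 point per library, a bar at the mean of each genotype and vertical lines between receptor classes (control dark, *Celsr3* mutant blue, *Fzd3* mutant red). In *Gria2*, for example, the *Fzd3* mutant libraries lay between 664 and 732 CPM and the controls between 481 and 559 CPM.

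Between *Celsr3* mutants and controls 0 of the 37 members passed the threshold in limma, where 0.307% of all genes did. At an unadjusted P under 0.05 the count was 1, *Gria3*, where 5.45% of all genes passed. With 1 library left out this count ran from 0 (without control 1 or *Celsr3* 2) to 8 (without control 2), with 5 without *Celsr3* 1 and 3 without *Fzd3* 3. The share of 5.45% belongs to the fit with all libraries, and none is given here for these fits, so their counts cannot be set against all genes. The limma voom fit on reads recovered from the CPM, chosen after seeing the data, also called 0 members, where it called 50 of all genes. It gave 1 member at an unadjusted P under 0.05. The median log2 fold change was -0.07, against 0.00 over all genes. In 3 members, *Gria3*, *Grm4* and *Grm8*, the groups did not overlap and the *Celsr3* mutant libraries were the lower, and in no member were they the higher, but in *Grm4* and *Grm8* the nearest libraries differed by less than the floor of 3 reads. Over all genes the groups did not overlap in 10.4%, counting either direction. Whichever library was left out, the count of members past the limma threshold was again 0.

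The mutants were also compared with each other. In *Fzd3* mutants against *Celsr3* mutants 28 members were higher, where 15.3% of all genes were, and 1 was lower, where 14.3% of all genes were. The median log2 fold change was 0.64, against 0.00 over all genes. Without *Celsr3* 4 the count past the threshold was 25, against 29 with it, where 3143 and 4346 of all genes passed. The comparisons of each mutant with controls share the same 3 control libraries, and their values are given side by side.

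**Figure D2:**
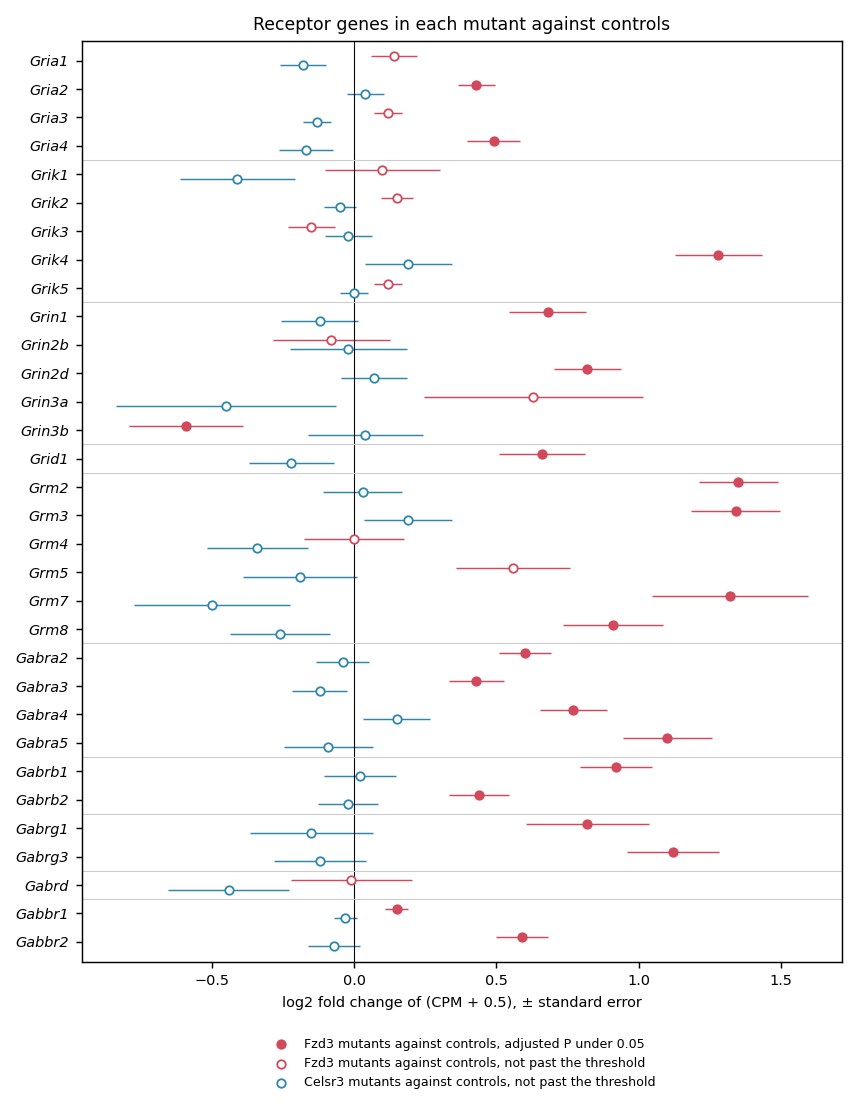
Log2 fold change of CPM + 0.5 of each receptor gene named here against controls, with bars of 1 standard error, for *Fzd3* mutants (red, filled where the limma adjusted P was under 0.05) and *Celsr3* mutants (blue). Filled points run from -0.59 for *Grin3b* to 1.35 for *Grm2*, and no blue point is filled.

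AMPA receptors, which carry most fast excitatory current, are built from the products of *Gria1* to *Gria4*. Of these genes 2 rose in *Fzd3* mutants and the median log2 fold change was 0.28. *Gria2*, whose edited product makes the channel impermeable to calcium, had the highest level per length of the class, at 33.7 CPM per kb of exon in controls. Its mRNA stood at 559, 481 and 526 CPM in controls, 664, 732 and 705 CPM in *Fzd3* mutants and 506, 574 and 526 CPM in *Celsr3* mutants. All 3 *Fzd3* mutant libraries were above the other 6, with log2 fold change 0.43 ± 0.0637, limma adjusted P = 0.000717 against controls. *Gria4*, a subunit with fast kinetics, stood at 35.8, 31.4 and 40.0 CPM in controls, 55.8, 48.6 and 46.4 CPM in *Fzd3* mutants and 33.8, 31.4 and 29.4 CPM in *Celsr3* mutants. Again *Fzd3* mutant libraries lay above all others (log2 fold change 0.49 ± 0.0946, limma adjusted P = 0.00308).

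X-linked *Gria3* stood at 70.5, 67.1 and 70.7 CPM in controls, 79.2, 76.7 and 71.3 CPM in *Fzd3* mutants and 63.9, 62.0 and 63.8 CPM in *Celsr3* mutants. The *Celsr3* mutant libraries were below all others, and *Fzd3* 3 stood close to control 3. Against controls neither difference passed (log2 fold change 0.12, limma adjusted P = 0.0775 in *Fzd3* mutants and -0.13, limma adjusted P = 0.768 in *Celsr3* mutants), whereas the difference between the mutants did (log2 fold change 0.26, limma adjusted P = 0.00293). The difference between *Fzd3* mutants and controls passed without library *Fzd3* 3 (log2 fold change 0.17, limma adjusted P 0.0258 to 0.252 over all alternatives). *Gria1*, a subunit whose insertion at synapses is regulated by activity, ranged from 113 to 127 CPM in controls, 118 to 145 CPM in *Fzd3* mutants and 96.3 to 114 CPM in *Celsr3* mutants. It did not pass against controls (log2 fold change 0.14 ± 0.0816, limma adjusted P = 0.21), but did without library *Fzd3* 3 (log2 fold change 0.23, limma adjusted P 0.0403 to 0.539 over all alternatives). Between the mutants *Gria1* passed (log2 fold change 0.32, limma adjusted P = 0.013), and that call was lost without library *Fzd3* 1, *Fzd3* 2 or *Celsr3* 4 (log2 fold change 0.25 to 0.29, limma adjusted P 0.00298 to 0.073 over all alternatives).

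Kainate receptors modulate transmitter release and excitability, and *Grik1* to *Grik3* encode subunits that form channels alone, whereas the products of *Grik4* and *Grik5* need a partner. Of the 5 genes only *Grik4* rose in *Fzd3* mutants, and the class median log2 fold change was 0.12. *Grik4* mRNA stood at 2.83, 1.99 and 2.26 CPM in controls, 6.99, 6.41 and 5.78 CPM in *Fzd3* mutants and 3.36, 2.56 and 2.38 CPM in *Celsr3* mutants. The lowest *Fzd3* mutant library was well above the highest of the others (log2 fold change 1.28 ± 0.153, limma adjusted P = 0.000183). *Grik5* had the highest level per length of the class, at 28.5 CPM per kb in controls, against 0.396 CPM per kb for *Grik4*. Its mRNA stood at 144, 151 and 148 CPM in controls, 169, 161 and 150.0 CPM in *Fzd3* mutants and 154, 142 and 145 CPM in *Celsr3* mutants. The *Fzd3* mutant and control groups overlapped at their edges, 150.0 CPM in *Fzd3* 3 and 151 CPM in control 2 (log2 fold change 0.12 ± 0.0496, limma adjusted P = 0.0994). *Grik5* passed against controls without library *Fzd3* 3 (log2 fold change 0.16, limma adjusted P 0.0282 to 0.323 over all alternatives) and against *Celsr3* mutants without library *Fzd3* 3 (log2 fold change 0.17, limma adjusted P 0.0251 to 0.301 over all alternatives).

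*Grik3* ranged from 173 to 226 CPM in controls, 164 to 188 CPM in *Fzd3* mutants and 189 to 202 CPM in *Celsr3* mutants. Its log2 fold change of -0.15 in *Fzd3* mutants did not pass (limma adjusted P = 0.192), but did without library control 3 (log2 fold change -0.25, limma adjusted P 0.0264 to 0.613 over all alternatives). *Grik2*, at 52.8 to 57.9 CPM in controls, 59.8 to 63.7 CPM in *Fzd3* mutants and 52.0 to 57.4 CPM in *Celsr3* mutants, passed between the mutants (log2 fold change 0.20, limma adjusted P = 0.0209) and not against controls (0.15, limma adjusted P = 0.0701). The call between the mutants was lost without library *Fzd3* 1, *Fzd3* 2, *Celsr3* 2 or *Celsr3* 4 (log2 fold change 0.17 to 0.19, limma adjusted P 0.0128 to 0.152 over all alternatives). With each column scaled to the same sum, *Grik2* passed against controls (0.16, limma adjusted P = 0.0455, range over alternatives 0.0455 to 0.224). *Grik1* ranged from 6.67 to 12.1 CPM in controls and 6.40 to 7.67 CPM in *Celsr3* mutants. In *Fzd3* mutants it averaged 10.1 CPM with 7.58 CPM as the lowest, and all 3 libraries lay within the range of the controls. Its log2 fold change was 0.10 in *Fzd3* mutants and -0.41 in *Celsr3* mutants, neither past the threshold. Between the mutants *Grik1* passed without library control 2 or *Fzd3* 3 (log2 fold change 0.51 to 0.69, limma adjusted P 0.0248 to 0.263 over all alternatives).

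NMDA receptors need glycine or serine beside glutamate, and each holds the obligatory subunit encoded by *Grin1*. In this class 2 of 5 genes rose in *Fzd3* mutants and 1 fell, with a median log2 fold change of 0.63. *Grin1* had the highest level per length, at 3.43 CPM per kb in controls, and its mRNA stood at 28.8, 29.6 and 41.5 CPM in controls, 58.1, 52.0 and 49.2 CPM in *Fzd3* mutants and 34.9, 29.9 and 26.5 CPM in *Celsr3* mutants. Control 3 was high among the controls but below every *Fzd3* mutant library (log2 fold change 0.68 ± 0.135, limma adjusted P = 0.00355). *Grin2d*, which encodes a subunit known to prevail before birth, stood at 4.60, 3.91 and 4.79 CPM in controls, 9.10, 8.29 and 7.33 CPM in *Fzd3* mutants and 4.28, 4.93 and 4.86 CPM in *Celsr3* mutants. The *Fzd3* mutant libraries were above all others (log2 fold change 0.82 ± 0.117, limma adjusted P = 0.00052), whereas the *Celsr3* mutant libraries overlapped the controls.

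*Grin3b*, which encodes a subunit that binds glycine, was the only member that fell. It ranged from 1.21 to 1.97 CPM in controls, 0.648 to 1.11 CPM in *Fzd3* mutants and 1.30 to 2.03 CPM in *Celsr3* mutants. All 3 *Fzd3* mutant libraries were below all others, *Fzd3* 3 by a small margin (log2 fold change -0.59 ± 0.201, limma adjusted P = 0.047 against controls). The call was lost in 12 of 20 alternatives, among them without library control 2, control 3, *Fzd3* 1, *Fzd3* 2, *Celsr3* 2 or *Celsr3* 4 (log2 fold change -0.64 to -0.44, limma adjusted P 0.03 to 0.167 over all alternatives), and with each column scaled to the same sum (-0.58, limma adjusted P = 0.0512). Between the mutants the log2 fold change was -0.62 (limma adjusted P = 0.0378), and this call was lost without library *Fzd3* 1, *Fzd3* 2, *Celsr3* 2 or *Celsr3* 4 (log2 fold change -0.68 to -0.48, limma adjusted P 0.0272 to 0.138 over all alternatives). Of the exons of *Grin3b* 32.1% overlap *Tmem259* on the opposite strand, and the sources do not say whether counting used strand, so reads of the pair cannot be told apart. *Grin2b*, which encodes the main NMDA subunit of the embryonic forebrain, ranged from 27.1 to 41.0 CPM in controls, 21.6 to 39.0 CPM in *Fzd3* mutants and 26.2 to 34.6 CPM in *Celsr3* mutants. The groups overlapped, with a log2 fold change of -0.08 in *Fzd3* mutants (limma adjusted P = 0.804).

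*Grin3a* varied most within a genotype among the NMDA genes relative to its mean, from 4.89 to 17.3 CPM in controls, 9.89 to 20.7 CPM in *Fzd3* mutants and 4.57 to 8.55 CPM in *Celsr3* mutants. Control 3 was more than 3 times control 2, and the log2 fold change of 0.63 in *Fzd3* mutants did not pass (limma adjusted P = 0.248). It passed without library control 3 (log2 fold change 1.08, limma adjusted P 0.029 to 0.705 over all alternatives). Between the mutants *Grin3a* passed without library control 2, control 3 or *Fzd3* 3 (log2 fold change 1.07 to 1.32, limma adjusted P 0.0157 to 0.27 over all alternatives), against a log2 fold change of 1.07 with all libraries (limma adjusted P = 0.057). Within the class, the *Grin1* share of the summed CPM per kb was 50.8 ± 2.35% in controls and 58.1 ± 2.48% in *Fzd3* mutants (s.d., n = 3), and that of *Grin3b* was 7.46 ± 1.77% and 2.97 ± 0.776%. With the longest transcript as the length the shares were 65.8% and 71.1% for *Grin1* and 4.32% and 1.62% for *Grin3b*.

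The delta receptors are grouped with the ionotropic family by sequence, and act mainly as synaptic organizers that bind cerebellins. *Grid1*, at 1.82 CPM per kb in controls, stood at 10.7, 9.74 and 12.1 CPM in controls, 20.5, 18.3 and 13.8 CPM in *Fzd3* mutants and 10.4, 9.71 and 7.67 CPM in *Celsr3* mutants. The *Fzd3* mutant libraries were above all others, with *Fzd3* 3 the lowest of them (log2 fold change 0.66 ± 0.150, limma adjusted P = 0.00759). With an ordinary variance for each gene the call of *Grid1* against controls was lost (limma adjusted P = 0.0512, where the lowest over the alternatives was 0.00177).

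Metabotropic glutamate receptors differ in coupling, among them that of *Grm5*, which acts through phospholipase C, those of *Grm2* and *Grm3*, which lower cyclic AMP, and those of *Grm4*, *Grm7* and *Grm8*, which also lower cyclic AMP and sit mainly at presynaptic sites. *Grm2*, *Grm3*, *Grm7* and *Grm8* rose in *Fzd3* mutants, and none of the named genes of the class passed in *Celsr3* mutants. *Grm2* mRNA stood at 8.82, 8.87 and 9.83 CPM in controls, 28.0, 26.1 and 19.3 CPM in *Fzd3* mutants and 10.5, 9.76 and 7.93 CPM in *Celsr3* mutants. *Grm3*, the highest of the class per length at 2.99 CPM per kb in controls, stood at 9.71, 9.06 and 8.60 CPM in controls, 25.0, 18.8 and 28.8 CPM in *Fzd3* mutants and 11.7, 11.7 and 8.47 CPM in *Celsr3* mutants. In both genes every *Fzd3* mutant library was above the other 6, but *Fzd3* 3 was the lowest of its genotype in *Grm2* and the highest in *Grm3*. The difference against controls was of like size in *Grm2* (log2 fold change 1.35 ± 0.139, limma adjusted P = 7.68e-05) and *Grm3* (log2 fold change 1.34 ± 0.155, limma adjusted P = 0.000151). *Grm2* lies 2.19 Mb from *Celsr3* on chromosome 9, and its log2 fold change in *Celsr3* mutants was 0.03 (limma adjusted P = 1).

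*Grm7* stood at 5.01, 2.76 and 6.95 CPM in controls, 15.0, 13.0 and 9.35 CPM in *Fzd3* mutants and 4.01, 2.98 and 2.49 CPM in *Celsr3* mutants. The controls spread widely, but none reached the lowest *Fzd3* mutant library (log2 fold change 1.32 ± 0.274, limma adjusted P = 0.00459). Between the mutants *Grm7* had the largest log2 fold change of the members, 1.82 (limma adjusted P = 0.000838). *Grm8*, the least abundant member, stood at 0.578, 0.575 and 0.928 CPM in controls, 1.77, 1.75 and 1.64 CPM in *Fzd3* mutants and 0.568, 0.345 and 0.570 CPM in *Celsr3* mutants. Every *Fzd3* mutant library was above the rest, and only the rise in *Fzd3* mutants passed (log2 fold change 0.91 ± 0.175, limma adjusted P = 0.00307, against -0.26, limma adjusted P = 1 in *Celsr3* mutants). Of the 14670 genes listed, 14665 were above 1 CPM in at least 3 libraries. *Grm8* was above 1 CPM in the *Fzd3* mutant libraries alone. It may thus be listed only because it is high there, and its rise cannot be separated from that choice.

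*Grm5* ranged from 18.1 to 26.7 CPM in controls, 29.8 to 39.2 CPM in *Fzd3* mutants and 14.7 to 27.2 CPM in *Celsr3* mutants. The *Fzd3* mutant libraries were above all others, yet the log2 fold change of 0.56 against controls did not pass (limma adjusted P = 0.0544). It passed in 7 alternatives, among them without library control 3, *Celsr3* 1 or *Celsr3* 4 (log2 fold change 0.56 to 0.69, limma adjusted P 0.0127 to 0.189 over all alternatives). Between the mutants *Grm5* passed (log2 fold change 0.76, limma adjusted P = 0.0156). That call was lost without library *Fzd3* 1, *Celsr3* 2 or *Celsr3* 4 (log2 fold change 0.56 to 0.72, limma adjusted P 0.00232 to 0.0906 over all alternatives). *Grm4* ranged from 1.56 to 1.95 CPM in controls, 1.38 to 2.30 CPM in *Fzd3* mutants and 1.11 to 1.54 CPM in *Celsr3* mutants, with a log2 fold change of 0.00 in *Fzd3* mutants and -0.34 in *Celsr3* mutants, neither past the threshold.

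The GABA-A alpha subunits set the kinetics and drug sensitivity of the receptor. *Gabra2*, *Gabra3*, *Gabra4* and *Gabra5* rose in *Fzd3* mutants, and in none of them did a *Fzd3* mutant library reach down to a control. *Gabra3*, on the X chromosome and highest of the class per length at 8.86 CPM per kb in controls, stood at 33.4, 30.9 and 39.8 CPM in controls, 47.8, 49.5 and 43.1 CPM in *Fzd3* mutants and 35.3, 30.5 and 29.8 CPM in *Celsr3* mutants. It rose in *Fzd3* mutant libraries by the least of these genes (log2 fold change 0.43 ± 0.0965, limma adjusted P = 0.0068). *Gabra2*, an alpha gene of synaptic receptors that prevails early, stood at 50.5, 40.8 and 51.2 CPM in controls, 71.4, 74.6 and 70.4 CPM in *Fzd3* mutants and 44.9, 51.8 and 42.0 CPM in *Celsr3* mutants. The *Fzd3* mutant libraries lay close together and above the rest (log2 fold change 0.60 ± 0.0924, limma adjusted P = 0.000823).

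*Gabra5*, whose product serves mainly receptors outside synapses, stood at 12.6, 10.9 and 12.9 CPM in controls, 29.9, 27.1 and 23.2 CPM in *Fzd3* mutants and 14.7, 8.84 and 11.3 CPM in *Celsr3* mutants. It rose by more than the other alpha genes named here (log2 fold change 1.10 ± 0.156, limma adjusted P = 0.000505), and the *Celsr3* mutant libraries lay on both sides of the controls. *Gabra4* stood at 7.75, 7.31 and 7.78 CPM in controls, 13.1, 14.8 and 12.2 CPM in *Fzd3* mutants and 7.06, 9.78 and 8.80 CPM in *Celsr3* mutants. Here too the *Fzd3* mutant libraries were apart from all others (log2 fold change 0.77 ± 0.118, limma adjusted P = 0.000823).

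**Figure D3:**
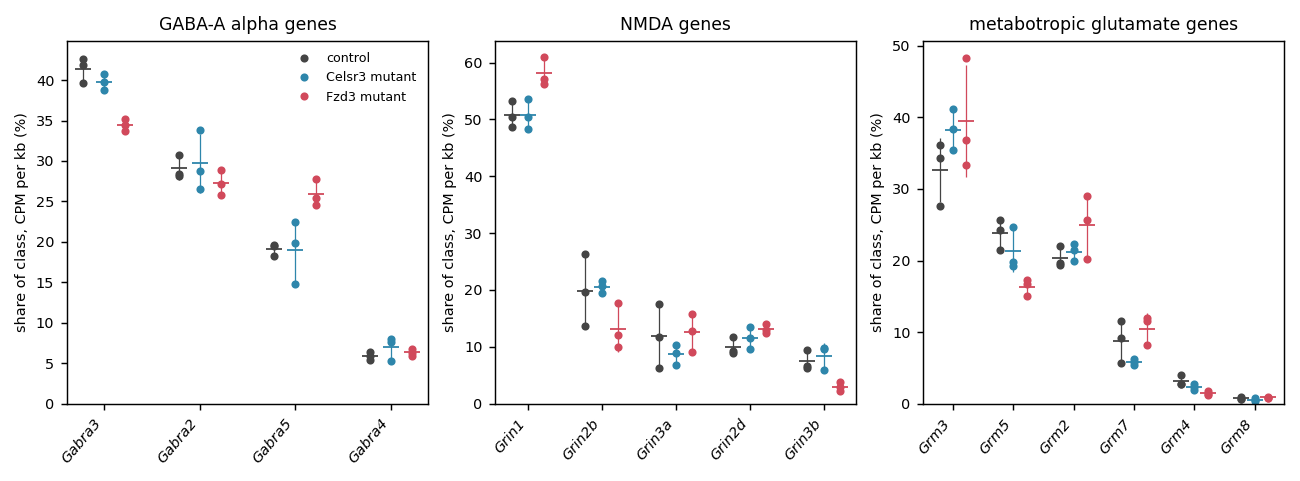
Share of each gene in the summed CPM per kb of exon of its class, in percent, for GABA-A alpha, NMDA and metabotropic glutamate genes named here, with 1 point per library and bars at the mean and s.d. of each genotype (n = 3). *Gabra5* stood at 19.1% in controls and 25.9% in *Fzd3* mutants, and *Gabra3* at 41.4% and 34.4%.

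Per length, the highest alpha genes were *Gabra3*, *Gabra2* and *Gabra5*, in that order in each genotype. The share of *Gabra5* was 19.1 ± 0.783% in controls, 19.0 ± 3.86% in *Celsr3* mutants and 25.9 ± 1.71% in *Fzd3* mutants (s.d., n = 3), and that of *Gabra3* was 41.4 ± 1.58%, 39.8 ± 0.969% and 34.4 ± 0.763%. The shares of *Gabra2* and *Gabra5* overlapped in *Fzd3* mutants. Some places within the classes changed when the longest transcript served as the length, among them those of *Gria3*, *Gria4* and *Grin2b* in *Fzd3* mutants, of *Grin2d* in *Celsr3* mutants and of *Grin3a* in both.

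The beta subunits, which complete the GABA binding site, include the products of *Gabrb1* and *Gabrb2*, and both genes rose in *Fzd3* mutants. *Gabrb1* stood at 4.05, 3.09 and 4.04 CPM in controls, 6.81, 8.08 and 7.50 CPM in *Fzd3* mutants and 3.54, 3.57 and 4.19 CPM in *Celsr3* mutants. Every *Fzd3* mutant library was above the rest (log2 fold change 0.92 ± 0.127, limma adjusted P = 0.000457). *Gabrb2*, known to rise after birth, ranged from 48.8 to 53.3 CPM in controls, 62.6 to 74.2 CPM in *Fzd3* mutants and 44.3 to 60.9 CPM in *Celsr3* mutants (log2 fold change 0.44 ± 0.105, limma adjusted P = 0.00955 in *Fzd3* mutants). All 3 *Fzd3* mutant libraries were above all others, and with an ordinary variance for each gene the call was lost (limma adjusted P = 0.0627, against a lowest of 0.0018 over the alternatives).

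The gamma subunits anchor GABA-A receptors at synapses through gephyrin, and *Gabrg1* and *Gabrg3* rose in *Fzd3* mutants. *Gabrg3* stood at 2.70, 3.42 and 4.01 CPM in controls, 9.24, 6.98 and 7.48 CPM in *Fzd3* mutants and 3.24, 3.41 and 2.49 CPM in *Celsr3* mutants. It rose by more than *Gabrg1* (log2 fold change 1.12 ± 0.161, limma adjusted P = 0.000565), with no overlap. *Gabrg1* stood at 1.10, 0.706 and 1.43 CPM in controls, 2.51, 2.53 and 1.76 CPM in *Fzd3* mutants and 1.07, 0.617 and 1.04 CPM in *Celsr3* mutants. Its 3 highest libraries were those of *Fzd3* mutants, and it rose (log2 fold change 0.82 ± 0.215, limma adjusted P = 0.0148), but the call was lost without library control 2, *Fzd3* 1 or *Fzd3* 2 (log2 fold change 0.64 to 0.75, limma adjusted P 0.00917 to 0.0593 over all alternatives) and with an ordinary variance for each gene (limma adjusted P = 0.0551).

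*Gabrd*, which encodes the delta subunit of receptors outside synapses, did not pass in any comparison. Its mRNA stood at 2.68, 1.33 and 1.48 CPM in controls, 1.56, 1.71 and 1.97 CPM in *Fzd3* mutants and 1.34, 0.907 and 1.30 CPM in *Celsr3* mutants. Control 1 was the highest library, and the *Fzd3* mutant values lay within the range of the controls (log2 fold change -0.01 ± 0.212, limma adjusted P = 0.968). In *Celsr3* mutants the log2 fold change was -0.44 (limma adjusted P = 0.936).

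The GABA-B receptor pairs the product of *Gabbr1*, which binds GABA, with that of *Gabbr2*, which couples to the G protein. *Gabbr1* had the highest level per length of all members, at 43.7 CPM per kb in controls, and stood at 341, 324 and 352 CPM in controls, 371, 379 and 380.3 CPM in *Fzd3* mutants and 342, 333 and 321 CPM in *Celsr3* mutants. The *Fzd3* mutant libraries were above the others by a small margin (log2 fold change 0.15 ± 0.0411, limma adjusted P = 0.0176), and the call was lost without library control 2 or *Fzd3* 2 (log2 fold change 0.12 to 0.15, limma adjusted P 0.0109 to 0.068 over all alternatives) and in the fit without a trend (limma adjusted P = 0.0536). *Gabbr2*, at 5.54 CPM per kb in controls, stood at 35.1, 37.8 and 38.2 CPM in controls, 62.9, 54.0 and 51.5 CPM in *Fzd3* mutants and 39.9, 34.9 and 31.5 CPM in *Celsr3* mutants. It rose more than its partner (log2 fold change 0.59 ± 0.0919, limma adjusted P = 0.000921). Its share of the summed CPM per kb of the pair was 10.7, 11.9 and 11.2% in controls and 16.4, 14.2 and 13.6% in *Fzd3* mutants.

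Among the 24 members that rose in *Fzd3* mutants, *Fzd3* 1 was the highest library of its genotype in 14 and *Fzd3* 3 the lowest in 18. Of the controls, control 3 was the highest in 18 and control 2 the lowest in 18. Of the *Celsr3* mutant libraries, *Celsr3* 1 was the highest in 16 and *Celsr3* 4 the lowest in 17. Without *Fzd3* 3 or without control 3 the count past the threshold against controls was 28, where 4276 and 4202 of all genes passed, and without control 2 or without *Fzd3* 2 it was 22, where 3118 and 3167 did. With *Xist* as a covariate 24 members rose and 0 fell, where 3893 of all genes passed and 1985 of these rose. Without it 24 members rose and 1 fell, where 4366 of all genes passed and 2199 rose. At an unadjusted P under 0.05 the *Xist* fit gave 31 members, against 30 without it, where 6067 of all genes passed without it. The limma voom fit called 25, all of them higher, where 4120 of all genes passed and 2320 rose.

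Many GABA-A genes lie in clusters. In GRCm38 *Gabrg1*, *Gabra2*, *Gabra4* and *Gabrb1* span 1398 kb on chromosome 5 (70751047 to 72149037). All 4 rose in *Fzd3* mutants, with the exceptions given above for *Gabrg1*. The exons of *Grin1* overlap *Grin1os* over 13.5% of their length, so reads of that pair could not be told apart without strand. The same limit holds for *Grin2d*, which overlaps *Gm45441* on the opposite strand over 9.66%. It also holds for *Grm2*, which overlaps *Gm28111* on the opposite strand over 9.6%. Apart from *Grin3b*, overlaps of the other members were smaller.

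The promoters of *Grm2*, *Grm3* and *Grm7* are shown because these genes rose together in *Fzd3* mutants. They had the largest log2 fold changes of CPM + 0.5 among the members, at 1.35, 1.34 and 1.32, against 1.28 for *Grik4*. By ratio of mean CPM *Grik4* rose the most, at 2.71, against 2.67, 2.65 and 2.54. Its window is not shown and held 1 GC box and 0 of either RE1 site. Each run is the 250 bases before a start of the gene in RefSeq (GRCm38.p6), read 5′ to 3′ on the strand of the gene. Capitals mark the GC box GGGCGG and the left and right sites of the RE1 element, TTCAGCACC and GGACAG, on either strand. They lie at chr9:106656110-106656359 on the minus strand for *Grm2*, chr5:9725353-9725602 on the minus strand for *Grm3* and chr6:110645262-110645511 on the plus strand for *Grm7*.
Grm2: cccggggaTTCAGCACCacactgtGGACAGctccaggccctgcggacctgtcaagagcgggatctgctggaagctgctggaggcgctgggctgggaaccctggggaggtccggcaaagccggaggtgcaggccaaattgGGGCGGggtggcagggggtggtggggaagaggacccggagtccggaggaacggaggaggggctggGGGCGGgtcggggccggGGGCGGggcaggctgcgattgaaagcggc
Grm3: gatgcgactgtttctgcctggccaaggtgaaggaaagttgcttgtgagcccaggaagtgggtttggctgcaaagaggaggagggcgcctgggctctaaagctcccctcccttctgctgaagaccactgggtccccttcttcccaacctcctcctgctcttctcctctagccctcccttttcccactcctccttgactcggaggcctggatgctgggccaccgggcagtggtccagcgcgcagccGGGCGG
Grm7: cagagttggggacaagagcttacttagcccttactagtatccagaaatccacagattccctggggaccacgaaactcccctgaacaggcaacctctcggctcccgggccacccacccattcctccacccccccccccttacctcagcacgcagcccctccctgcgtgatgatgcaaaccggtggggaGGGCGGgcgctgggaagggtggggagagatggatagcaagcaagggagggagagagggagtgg

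The RE1 element is bound by REST, a repressor of neuronal genes in other cells. In RefSeq 23 members matched, with 30 such windows, out of 32851 windows in all. On either strand GGGCGG occurred in 46.7% of member windows and 32.7% of all windows, and GGACAG in 40% and 18.7%. TTCAGCACC occurred in 3.33% of member windows, the *Grm2* window alone, and in 0.301% of all windows. In that window TTCAGCACC began at base 9 and GGACAG at base 25. Whether this spacing is that of a whole RE1 element was not tested. The cyclic AMP element TGACGTCA occurred in 0% of member windows and 1.55% of all windows, the E-box CAGATG in 6.67% and 14.4%, the E-box CAGCTG in 0% and 13%, and the TATA box TATAAA in 13.3% and 12.4%. A match describes the letters of a window and not a binding site.

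Genes that act with the receptors were counted next, beside the 15.0% of all genes that rose in *Fzd3* mutants and the 14.8% that fell. Of 13 genes for auxiliary subunits of AMPA receptors 6 rose in *Fzd3* mutants (median log2 fold change 0.21), among them *Shisa9* (0.62 ± 0.0969, limma adjusted P = 0.000921), *Cacng2* (0.51 ± 0.0829, limma adjusted P = 0.00116) and *Shisa7* (0.41 ± 0.0702, limma adjusted P = 0.00155). Both auxiliary genes of kainate receptors rose, *Neto2* from 207, 203 and 183 CPM in controls to 252, 242 and 253 CPM in *Fzd3* mutant libraries (log2 fold change 0.33 ± 0.0536, limma adjusted P = 0.00107) and *Neto1* by less (log2 fold change 0.26 ± 0.0753, limma adjusted P = 0.0241). The call of *Neto1* was lost without library control 2, control 3, *Fzd3* 1 or *Fzd3* 2 (log2 fold change 0.20 to 0.25, limma adjusted P 0.0112 to 0.091 over all alternatives). Of 18 scaffold genes of glutamate receptors 9 rose and 1 fell (median log2 fold change 0.14). *Dlg2*, which encodes PSD-93, rose the most, from 97.5, 95.5 and 99.1 CPM in controls to 196, 183 and 184 CPM in *Fzd3* mutant libraries (log2 fold change 0.94 ± 0.0614, limma adjusted P = 2.7e-06), with *Celsr3* mutants at 106, 109 and 91.5 CPM. *Dlgap1* (log2 fold change 0.83 ± 0.123, limma adjusted P = 0.0007) and *Grip2* (log2 fold change 0.41 ± 0.0688, limma adjusted P = 0.00135) had the next smallest adjusted P.

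Of 13 listed genes of GABA receptor scaffolds and trafficking 3 rose (median log2 fold change 0.17), where 15.0% of all genes did, among them *Shisa7*, which is in both lists, and *Lhfpl4* (log2 fold change 0.20 ± 0.0602, limma adjusted P = 0.0271). The call of *Lhfpl4* was lost without library control 1, *Fzd3* 1 or *Fzd3* 2 (log2 fold change 0.16 to 0.19, limma adjusted P 0.0154 to 0.101 over all alternatives). *Kctd12* and *Kctd16* of that list were not analysed here. Among chloride transporters, *Slc12a2*, which loads chloride into young neurons, rose from 64.1, 64.3 and 57.2 CPM in controls to 78.3, 82.1 and 79.6 CPM in *Fzd3* mutant libraries (log2 fold change 0.37 ± 0.0579, limma adjusted P = 0.000937). *Slc12a7* fell (log2 fold change -0.38 ± 0.0615, limma adjusted P = 0.00119). *Slc12a5*, which extrudes chloride, was not analysed here.

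Of 8 listed genes of glutamate transport and metabolism 2 rose and 1 fell (median log2 fold change 0.05), where 29.8% of all genes passed in either direction. *Slc1a1*, a neuronal glutamate transporter, rose (log2 fold change 0.44 ± 0.0550, limma adjusted P = 0.000245), and the vesicular transporter *Slc17a7* fell (log2 fold change -0.35 ± 0.0901, limma adjusted P = 0.0142), and this call was lost without library control 2 (log2 fold change -0.31, limma adjusted P 0.00832 to 0.0713 over all alternatives). *Slc1a2* passed with overlapping groups (log2 fold change 0.36 ± 0.121, limma adjusted P = 0.0444), and lost the call without library control 1, control 2, *Fzd3* 1, *Fzd3* 2, *Fzd3* 3, *Celsr3* 1 or *Celsr3* 2 (log2 fold change 0.22 to 0.40, limma adjusted P 0.00227 to 0.157 over all alternatives). Of 7 listed genes of GABA synthesis, transport and breakdown 2 rose (median log2 fold change 0.17). The calls of *Slc6a11* (log2 fold change 0.84 ± 0.235, limma adjusted P = 0.0198) were lost without library control 1, control 2, *Fzd3* 1 or *Fzd3* 2 (log2 fold change 0.68 to 0.85, limma adjusted P 0.00516 to 0.102 over all alternatives), and those of *Aldh5a1* (log2 fold change 0.17 ± 0.0550, limma adjusted P = 0.0418) were lost without library control 1, control 2, control 3, *Fzd3* 1, *Fzd3* 2, *Celsr3* 1, *Celsr3* 2 or *Celsr3* 4 (log2 fold change 0.13 to 0.18, limma adjusted P 0.0332 to 0.151 over all alternatives). *Slc17a8*, *Glul* and *Slc6a13* were not analysed here.

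Receptor genes beyond the symbol rule were represented by the glycine receptor genes *Glrb* and *Glra2*, and both rose (log2 fold change 0.39 ± 0.0713, limma adjusted P = 0.00219 and 0.35 ± 0.112, limma adjusted P = 0.0357, median 0.37). The call of *Glra2* was lost without library control 2, *Fzd3* 1 or *Fzd3* 2 (log2 fold change 0.21 to 0.34, limma adjusted P 0.0208 to 0.133 over all alternatives). *Gabre*, *Gabrp*, *Gabrq*, *Glra1* and *Glra3* were not analysed here. Of 6 members known to prevail before birth 5 rose in *Fzd3* mutants (median log2 fold change 0.56), and of 3 listed members known to rise after birth 2 did (median log2 fold change 0.44). The summed CPM of the 6 was 253, 245 and 251 in controls, 257, 249.9 and 227 in *Celsr3* mutants and 367, 351 and 346 in *Fzd3* mutants. That of the 3 was 62.7, 55.3 and 64.0 in controls, 70.3, 55.9 and 51.3 in *Celsr3* mutants and 93.7, 89.9 and 78.1 in *Fzd3* mutants. Both sums were highest in the *Fzd3* mutant libraries. No gene of any list passed in *Celsr3* mutants against controls by limma.

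**Figure D4:**
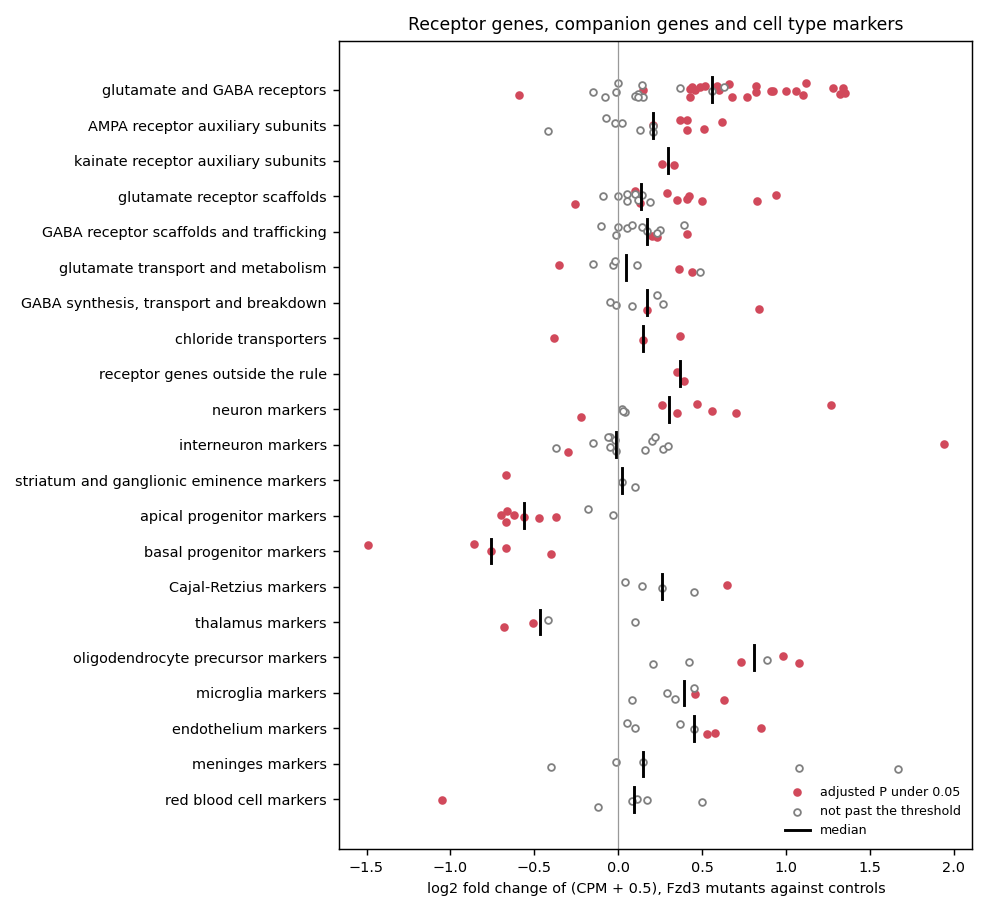
Log2 fold change of CPM + 0.5 in *Fzd3* mutants against controls for each gene of each list, filled where the limma adjusted P was under 0.05, with a bar at the list median. The receptor genes have a median of 0.56, the apical progenitor markers of -0.56 and the basal progenitor markers of -0.76.

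Markers of cell types moved beside the receptor genes in *Fzd3* mutants. Of all genes 15.0% rose and 14.8% fell. Of 10 listed neuron markers 6 rose and 1 fell (median log2 fold change 0.31), with *Nefl* (1.27 ± 0.0916, limma adjusted P = 5.77e-06), *Nefm* (0.70 ± 0.0693, limma adjusted P = 6.12e-05) and *Syn1* (0.47 ± 0.0518, limma adjusted P = 0.000118) having the smallest adjusted P. *Nefl* and *Nefm* lie 2.86 and 2.88 Mb from *Fzd3* on chromosome 14, so that an effect of the allele or of the chromosome carried with it cannot be told apart from other causes. The summed CPM of the 10 was 5868, 5734 and 5698 in controls, 5927, 5865 and 5598 in *Celsr3* mutants and 6183, 5983 and 6149 in *Fzd3* mutants, of which *Dcx*, the most abundant, held 1829.6 to 2028 CPM per library. *Tubb3* was not analysed here. Of 9 apical progenitor markers 7 fell and 0 rose at the limma threshold (median log2 fold change -0.56), where 7 had an unadjusted P under 0.05. *Vim* (-0.62 ± 0.0648, limma adjusted P = 8.14e-05), *Pax6* (-0.70 ± 0.0777, limma adjusted P = 0.00012) and *Nes* (-0.67 ± 0.0876, limma adjusted P = 0.000325) had the smallest adjusted P. The sum was 1388, 1443 and 1399 CPM in controls, 1066, 1128 and 1009 CPM in *Fzd3* mutants and 1261, 1297 and 1378 CPM in *Celsr3* mutants, with *Fabp7* the most abundant at 343 to 506 CPM. All 5 basal progenitor markers fell (median log2 fold change -0.76), with *Neurog2* (-0.86 ± 0.0903, limma adjusted P = 8.46e-05), *Btg2* (-0.76 ± 0.0847, limma adjusted P = 0.00013) and *Eomes* (-0.67 ± 0.101, limma adjusted P = 0.000764) named by rule. Their sum was 391, 415 and 346 CPM in controls, 219.8, 239.6 and 275 CPM in *Fzd3* mutants and 381, 434 and 440.1 CPM in *Celsr3* mutants, with *Eomes*, the most abundant, at 97.0 to 201 CPM. The part of these cell types in the receptor results was not tested.

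Of 14 interneuron markers 1 rose and 1 fell (median log2 fold change -0.02). *Npy*, which encodes a neuropeptide, rose from 16.0, 18.8 and 17.0 CPM in controls to 75.2, 72.2 and 57.3 CPM in *Fzd3* mutant libraries (log2 fold change 1.94 ± 0.125, limma adjusted P = 2.46e-06), with *Celsr3* mutants at 28.0, 21.0 and 21.0 CPM. The fall of *Sp9* (log2 fold change -0.30 ± 0.0996, limma adjusted P = 0.041) was lost without library control 2, control 3, *Fzd3* 1, *Fzd3* 2, *Fzd3* 3, *Celsr3* 1 or *Celsr3* 2 (log2 fold change -0.33 to -0.24, limma adjusted P 0.00849 to 0.147 over all alternatives). The list summed to 398, 407 and 445 CPM in controls, 539.8, 492 and 430.2 CPM in *Fzd3* mutants and 418, 366 and 333 CPM in *Celsr3* mutants, with *Dlx1* the most abundant at 67.8 to 98.1 CPM. Of 6 oligodendrocyte precursor markers 3 rose (median log2 fold change 0.81), and the list summed to 32.4, 29.6 and 42.5 CPM in controls, 79.0, 69.3 and 41.2 CPM in *Fzd3* mutants and 41.3, 29.6 and 34.4 CPM in *Celsr3* mutants. *Fzd3* 3 lay within the controls in this sum. *Olig1* rose with no overlap (log2 fold change 1.08 ± 0.217, limma adjusted P = 0.00375), whereas *Olig2* (log2 fold change 0.98 ± 0.303, limma adjusted P = 0.0309) and the most abundant gene *Pdgfra* (log2 fold change 0.73 ± 0.240, limma adjusted P = 0.0399, 11.8 to 32.5 CPM) overlapped. The call of *Olig2* was lost without library control 1, control 2, *Fzd3* 1 or *Fzd3* 2 (log2 fold change 0.80 to 0.93, limma adjusted P 0.00326 to 0.125 over all alternatives), and that of *Pdgfra* without library control 1, control 2, *Fzd3* 1 or *Fzd3* 2 (log2 fold change 0.56 to 0.74, limma adjusted P 0.00446 to 0.155 over all alternatives).

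Of 7 endothelium markers 3 rose (median log2 fold change 0.45), *Flt1* (0.85 ± 0.121, limma adjusted P = 0.00054), *Kdr* (0.58 ± 0.122, limma adjusted P = 0.0049) and *Cldn5* (0.53 ± 0.125, limma adjusted P = 0.00879). They summed to 102, 104 and 107 CPM in controls, 155, 145 and 135 CPM in *Fzd3* mutants and 112, 97.9 and 146 CPM in *Celsr3* mutants, with *Kdr* the most abundant at 28.4 to 51.1 CPM. Of 6 listed microglia markers 2 rose (median log2 fold change 0.39), *Csf1r* (0.63 ± 0.130, limma adjusted P = 0.00425) and *C1qa* (0.46 ± 0.138, limma adjusted P = 0.0274), the latter lost without library control 1, control 2, *Fzd3* 1 or *Fzd3* 3 (log2 fold change 0.40 to 0.48, limma adjusted P 0.0159 to 0.0942 over all alternatives). They summed to 32.5, 38.1 and 36.6 CPM in controls, 55.7, 52.5 and 39.0 CPM in *Fzd3* mutants and 37.0, 39.0 and 46.2 CPM in *Celsr3* mutants, with *Csf1r* the most abundant at 11.6 to 23.1 CPM. *Tmem119* was not analysed here. Of 5 Cajal-Retzius markers *Ndnf* rose (log2 fold change 0.65 ± 0.0956, limma adjusted P = 0.000612) in a list with a median of 0.26. That list summed to 506, 546 and 516 CPM in controls, 567, 501 and 720.0 CPM in *Fzd3* mutants and 501, 513 and 407 CPM in *Celsr3* mutants, with *Reln* at 371 to 651 CPM. The part of these lists in the receptor results was not tested.

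Markers of thalamus and striatum were low. Of 4 listed thalamus markers 2 fell (median log2 fold change -0.47), and the list summed to 15.8, 16.9 and 14.6 CPM in controls, 12.2, 11.1 and 12.7 CPM in *Fzd3* mutants and 12.5, 14.1 and 16.1 CPM in *Celsr3* mutants, with *Lef1* at 3.52 to 6.35 CPM. The fall of *Lhx9* (log2 fold change -0.68 ± 0.193, limma adjusted P = 0.0212) was lost without library control 3, *Fzd3* 2 or *Fzd3* 3 (log2 fold change -0.64 to -0.51, limma adjusted P 0.0209 to 0.0699 over all alternatives), and that of *Tcf7l2* (log2 fold change -0.51 ± 0.177, limma adjusted P = 0.0484) without library control 1, control 2, *Fzd3* 1, *Fzd3* 2 or *Celsr3* 2 (log2 fold change -0.51 to -0.42, limma adjusted P 0.0252 to 0.158 over all alternatives). Of 12 striatal and ganglionic eminence markers 3 were listed, summing to 4.57, 5.86 and 7.98 CPM in controls, 5.43, 4.88 and 4.58 CPM in *Fzd3* mutants and 5.19, 6.28 and 7.80 CPM in *Celsr3* mutants. Among them *Ebf1*, the most abundant at 1.36 to 4.31 CPM, fell (log2 fold change -0.67 ± 0.217, limma adjusted P = 0.037), and this call was lost without library control 2, control 3, *Fzd3* 1, *Fzd3* 2 or *Fzd3* 3 (log2 fold change -0.75 to -0.39, limma adjusted P 0.0147 to 0.11 over all alternatives). Of 6 red blood cell markers *Hbb-y* fell (log2 fold change -1.05 ± 0.328, limma adjusted P = 0.0331), and this call was lost without library control 1, control 2, *Fzd3* 1, *Fzd3* 2 or *Fzd3* 3 (log2 fold change -1.16 to -0.74, limma adjusted P 0.00356 to 0.127 over all alternatives), and the list summed to 1330.0, 1463 and 1566 CPM in controls, 1709, 1842 and 1147 CPM in *Fzd3* mutants and 1832, 1194 and 1932 CPM in *Celsr3* mutants, with *Hba-a1* at 495 to 782 CPM. Of 5 listed meninges markers 0 passed by limma, where 1 had an unadjusted P under 0.05. This was *Col1a1*, at 0.778 to 5.35 CPM in controls, 4.85 to 8.45 CPM in *Fzd3* mutants and 1.39 to 21.5 CPM in *Celsr3* mutants, which passed without library *Celsr3* 4 (log2 fold change 1.67, limma adjusted P 0.00586 to 0.292 over all alternatives), where with all libraries the log2 fold change was 1.67 (limma adjusted P = 0.12). The 4 choroid plexus markers *Ttr*, *Folr1*, *Kl* and *Clic6*, with *Gbx2*, *Lum* and the other 9 striatal markers, were not analysed here. The part of these tissues in the receptor results was not tested.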

How the data were processed

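Transcripts of E16.5 mouse cerebral cortex were measured by RNA-seq in 3 control, 3 *Fzd3* mutant and 3 *Celsr3* mutant libraries. The authors deposited CPM per gene, and their processing notes name FastQC, TopHat, Bowtie, TopHat2, Cufflinks 2.1.1 and edgeR 2.12 without saying how each served, and the builds GRCm38 and GRCh37. The labels name Trizol for RNA, the methods RNeasy. Members were chosen by symbol from 14670 genes, and members and lists were chosen with earlier results of these data known.

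All 9 libraries entered 1 limma 3.58.1 fit (lmFit, contrasts.fit, eBayes with trend) in R 4.3.3 on log2(CPM + 0.5), with Benjamini-Hochberg adjustment over 14670 genes and a threshold of 0.05. The same fit was also tested on simulated data, and both the spread given to those data and the pass mark were reset after a first run that failed. Tables, promoter windows and figures were made with Python 3.11.15, numpy 2.4.6, pandas 2.3.3 and matplotlib 3.10.9. Whole read numbers fitted 100% of the values within 0.1 reads and summed to 39857305 to 69600589 reads per library over the listed genes. For library pairs within a genotype, the median over genes of a chi-square for equal rates was 4.59 to 9.73 times that of counting noise. This is a scale of squared differences.

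Alternatives were other pseudocounts, filters and scalings, 6 libraries at a time, a replicate block, an *Xist* covariate, other variance models, each library left out, and limma voom on recovered reads, which was chosen after seeing the data. A fit on negative binomial counts was not run, and limma voom took its place. The ratios of *Grin2b* to *Grin2a* and of *Slc12a5* to *Slc12a2* were not computed, since *Grin2a* and *Slc12a5* are not among the listed genes. Every gene given above as not analysed here had no listed gene of that symbol. Some genes of the members and lists, with the ratios and clusters that need them, are not reported here and are part of the counts only.

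Among genes reported here, values in every library are given for those of the 24 members with the smallest P among those past the threshold in any comparison, and for the member with the highest control CPM per kb in each class, and the rest are given by range. From the lists reported here the counts of all genes are given, and at most 3 genes are named, those with the smallest adjusted P in *Fzd3* mutants against controls. Other list genes named as the most abundant were chosen after their values were seen.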

Additional observations from a re-analysis of the deposited data

Results flagged for a closer look

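The mutants differed from each other in 29 members. The test is the direct comparison of *Fzd3* mutants with *Celsr3* mutants in the same limma fit, at an adjusted P under 0.05, and 28 were higher in *Fzd3* mutants. Values of 25 of them follow, as log2 fold changes of CPM + 0.5, with positive values where *Fzd3* mutants were higher. Among AMPA receptor genes the direct log2 fold change was 0.32 for *Gria1*, 0.39 for *Gria2*, 0.26 for *Gria3* and 0.66 for *Gria4*. Of the kainate receptor genes 2 differed, with 0.20 for *Grik2* and 1.09 for *Grik4*. In the NMDA class the values were 0.80 for *Grin1*, 0.75 for *Grin2d* and -0.62 for *Grin3b*. The delta receptor gene *Grid1* differed by 0.88. Metabotropic glutamate receptor genes gave 1.32 for *Grm2*, 1.14 for *Grm3*, 0.76 for *Grm5*, 1.82 for *Grm7* and 1.17 for *Grm8*. The limit given above for the listing of *Grm8* holds here too. GABA-A alpha genes gave 0.64 for *Gabra2*, 0.55 for *Gabra3*, 0.62 for *Gabra4* and 1.19 for *Gabra5*. Beta genes differed by 0.90 for *Gabrb1* and 0.46 for *Gabrb2*. Gamma genes stood apart by 0.98 for *Gabrg1* and 1.24 for *Gabrg3*. GABA-B receptor genes differed by 0.18 for *Gabbr1* and 0.66 for *Gabbr2*. The largest was that of *Grm7*, and *Grin3b* alone was lower in *Fzd3* mutants. In a fit with a replicate block *Celsr3* 4 carries no weight, since no other library has its number. With a replicate block the calls of *Gria1* (limma adjusted P = 0.073, against a lowest of 0.00298 over the alternatives), *Grik2* (limma adjusted P = 0.152, lowest 0.0128), *Grin3b* (limma adjusted P = 0.111, lowest 0.0272) and *Gabbr1* (limma adjusted P = 0.11, lowest 0.00495) were lost. With an ordinary variance for each gene those of *Gria1* (limma adjusted P = 0.0713), *Grin3b* (limma adjusted P = 0.0867), *Grm5* (limma adjusted P = 0.0906, lowest 0.00232) and *Gabrb2* (limma adjusted P = 0.055, lowest 0.000855) were lost, and with *Xist* as a covariate that of *Grin3b* (limma adjusted P = 0.0903). With 1 library left out *Gria1*, *Grik2*, *Grin3b* and *Grm5* each lost the call in some fits. The share of these differences that comes from cell numbers was not tested.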

How the results depend on the processing

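Over 21 alternative fits the count of members past the threshold was 18 to 28 in *Fzd3* mutants against controls, 0 in *Celsr3* mutants against controls and 22 to 32 between the mutants. Over all genes these counts were 2958 to 4366, 24 to 53 and 2101 to 4471. With a mean of at least 5 CPM, 28 members were tested, so the 18 and the 22 come from fewer genes. Of the 25 members past the threshold in *Fzd3* mutants 19 passed in every alternative in which they were tested, as did 23 of the 29 between the mutants. Of the values of members 2235 stayed on their side of the threshold, 45 fell short of it, 24 came to pass it and 0 past it turned sign. With ordinary variance 24 genes of all passed in *Celsr3* mutants against controls, where 45 did before.

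Leaving out each library in turn gave 22 to 28 members in *Fzd3* mutants against controls (2958 to 4312 of all genes). It gave 0 in *Celsr3* mutants against controls (39 to 53 of all genes) and 25 to 32 between the mutants (2971 to 4471 of all genes).

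With a replicate block 25 members passed in *Fzd3* mutants against controls, 0 in *Celsr3* mutants and 25 between the mutants. Over all genes the replicate block gave 3629, 29 and 2101, against 4366, 45 and 4346 without it. No other library has the number of *Celsr3* 4, so the block fitted that library exactly. With the block, comparisons with *Celsr3* mutants therefore rested on *Celsr3* 1 and *Celsr3* 2. Same-numbered *Fzd3* mutant and control libraries had a mean correlation of deviations of -0.141, and none correlated best with its own number. Between the mutants library 1 of each did (0.192) and library 2 did not (-0.0799), so the numbers were not taken as pairs. The planned quasi-likelihood test was not run.

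The floor of 3 reads covers counting error only, and 9 members had a mean below 5 CPM.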

Other observations

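Levels of the members spanned a wide range. Of 37 members 11 had a mean above 50 CPM and 9 a mean below 5 CPM, where the median over all genes was 24.6 CPM. Per kb of exon, *Gabbr1* (43.7 CPM per kb), *Gria2* (33.7), *Grik5* (28.5) and *Grik3* (22.1) were the highest in controls. In *Fzd3* mutants they stood at 48.6, 45.2, 31.0 and 19.8 CPM per kb, and in *Celsr3* mutants at 42.8, 34.5, 28.4 and 21.7. The lowest member per length in controls was *Grm8*, at 0.0701 CPM per kb.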
